A study of Mus musculus with 4 samples.

Results

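The 34 genes described here encode proteins that build peroxisomes or carry out their metabolism, and were taken by symbol from a table of 24138 rows, in which each of the 34 had a single row. They comprise 13 peroxins and 21 enzymes. The data are bulk RNA sequencing of whole liver from 4 male C57BL/6J mice aged 18 weeks. All 4 animals had received the FAT-MASH diet, which is used to model metabolic dysfunction-associated steatohepatitis (MASH), and resolvin D1 (RvD1), a lipid mediator made from docosahexaenoic acid. They form 1 group, named livers 1 to 4 after their labels, and no untreated, vehicle or diet-only liver was analysed here. What follows is therefore a description of transcript abundance after diet and RvD1, animal by animal, with no test between groups. In whole liver, fewer cells of a type and less RNA per cell cannot be told apart.

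Peroxisomes are single-membrane organelles, abundant in hepatocytes, that shorten very long, branched and dicarboxylic fatty acids and the side chain of bile acid precursors, begin the synthesis of ether lipids, and detoxify glyoxylate. Their oxidases pass electrons to oxygen and form hydrogen peroxide, which catalase removes. Their enzymes are made in the cytosol and imported folded: the receptors PEX5 and PEX7 recognise signals at either end of a protein, dock at the membrane on PEX13 and PEX14, and PEX5 is recycled by a ubiquitin ligase and an ATPase complex. In rodents many of these genes are induced by the fatty acid receptor PPAR alpha, which binds DNA as a dimer with RXR.

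Levels are given in FPKM, which scale fragments to transcript length and library size, so that genes can be compared with each other. Depth, in units of 1e+06 fragments, was roughly estimated at 20.1, 19.3, 19.5 and 18.8 in livers 1 to 4. The method bounds the answer in advance, so these values give a size and do not compare the livers. A gene counted as expressed from a mean of 1 FPKM upward, which kept 10541 rows of the table and 33 of the 34 genes; Far1 lay below. No gene of the set was listed at 0 in any liver. The liver identity of the samples was checked on marker lists: all 8 hepatocyte markers were expressed, with a summed level between 23027 and 31377 FPKM, the highest in liver 4, and the 3 kidney tubule markers Slc34a1, Umod and Slc22a6 were at 0 in every liver. Markers of other liver cells were present in all 4 libraries, with all 6 macrophage markers expressed (summed level 93.9 to 148 FPKM, highest in liver 2) and all 5 stellate cell markers expressed (164 to 259.9 FPKM, highest in liver 2). Liver 2 also stood apart in its acute phase genes, where the summed level of 6 genes was 8919 FPKM against 1839 to 2883 FPKM in the other livers.

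The sequences shown first belong to a pair of neighbouring thiolase genes, Acaa1a and Acaa1b, both encoding peroxisomal 3-ketoacyl-CoA thiolase, which cleaves the shortened acyl chain. Their spans are 184 kb apart on chromosome 9. The 130 bases directly before the transcript start of each in the RefSeq promoter windows (GRCm38.p6) are shown because the levels of these close paralogs, given further on, differed more than 10-fold. Capitals mark the letters CCAAT and GGGCGG on either strand. The Acaa1a stretch is chr9:119341164-119341293 on the plus strand and the Acaa1b stretch chr9:119157094-119157223 on the minus strand. The Acaa1a start used is that of the deposited row, and the whole RefSeq span of the gene begins upstream of it, at 119341028.
Acaa1a: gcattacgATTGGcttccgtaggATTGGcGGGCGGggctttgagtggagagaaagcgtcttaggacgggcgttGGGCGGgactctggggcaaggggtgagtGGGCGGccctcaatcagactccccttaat
Acaa1b: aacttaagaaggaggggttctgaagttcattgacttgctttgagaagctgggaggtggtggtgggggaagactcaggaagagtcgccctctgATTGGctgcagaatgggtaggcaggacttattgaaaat
The Acaa1a stretch held 2 CCAAT and 3 GGGCGG matches, 9 CpG pairs and a GC content of 60.8%. The Acaa1b stretch held 1 CCAAT and 0 GGGCGG matches, 1 CpG pair and a GC content of 49.2%. Over the 250 bases before the start, GGGCGG was found in 32.7% of the 32851 RefSeq windows and CCAAT in 33.8%.

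RefSeq promoter windows were found for 30 of the 34 genes, 34 windows in all. GGGCGG occurred on either strand before the start of 19 of these 30 genes, CCAAT before 12 and TATAAA before 3, counting a gene with a match in any of its windows. Counted by window, as the background is, the matches were in 20, 13 and 3 of the 34 windows. The background was 32.7%, 33.8% and 12.4% of all windows. The direct repeat of AGGTCA with 1 free base between its copies (DR1), the arrangement bound by PPAR and RXR dimers, was searched on both strands of the 300-base window that also takes in 50 bases after the start, allowing 2 mismatches. It was found for 2 genes, Cat and Acox2, in 2 of the 34 windows, and in 3.86% of all windows. They are shown because they are the set's only matches, with the 13 matched bases in capitals, at chr2:103485325-103485377 and chr14:8258810-8258838, both on the minus strand.
Cat: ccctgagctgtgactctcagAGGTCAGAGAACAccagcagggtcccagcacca
Acox2: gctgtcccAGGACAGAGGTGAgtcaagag
The Cat match began 204 bases before the start and the Acox2 match 9 bases after 1 of the 2 RefSeq starts of that gene. These are matches of letters, and no binding was measured.

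The 34 genes spanned more than 3 orders of magnitude in level. Together they held 1.86 ± 0.0938% of the summed FPKM of the table (SD, n = 4). Scp2, Phyh, Uox, Acaa1b and Cat had means from 1459 to 1875 FPKM and ranked between 32 and 48 among the 10541 expressed genes. These 5 genes made up 79.3%, 80.03%, 79.5% and 79.5% of the set's summed level in livers 1 to 4. No mean lay between that of Cat and the 247 FPKM of Hsd17b4. Below that gap 8 genes lay from 100 to 300 FPKM, 17 from 10 to 100, 3 from 1 to 10 and 1 under 1 FPKM. In the order of the means, 25 of the 33 neighbouring pairs overlapped between livers, so most adjacent ranks were not separated beyond the spread. The 8 breaks without overlap fell below Cat, Ech1, Acaa1a, Pex11g, Pex13, Pex26, Pex10 and Agps.

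**Figure D1:**
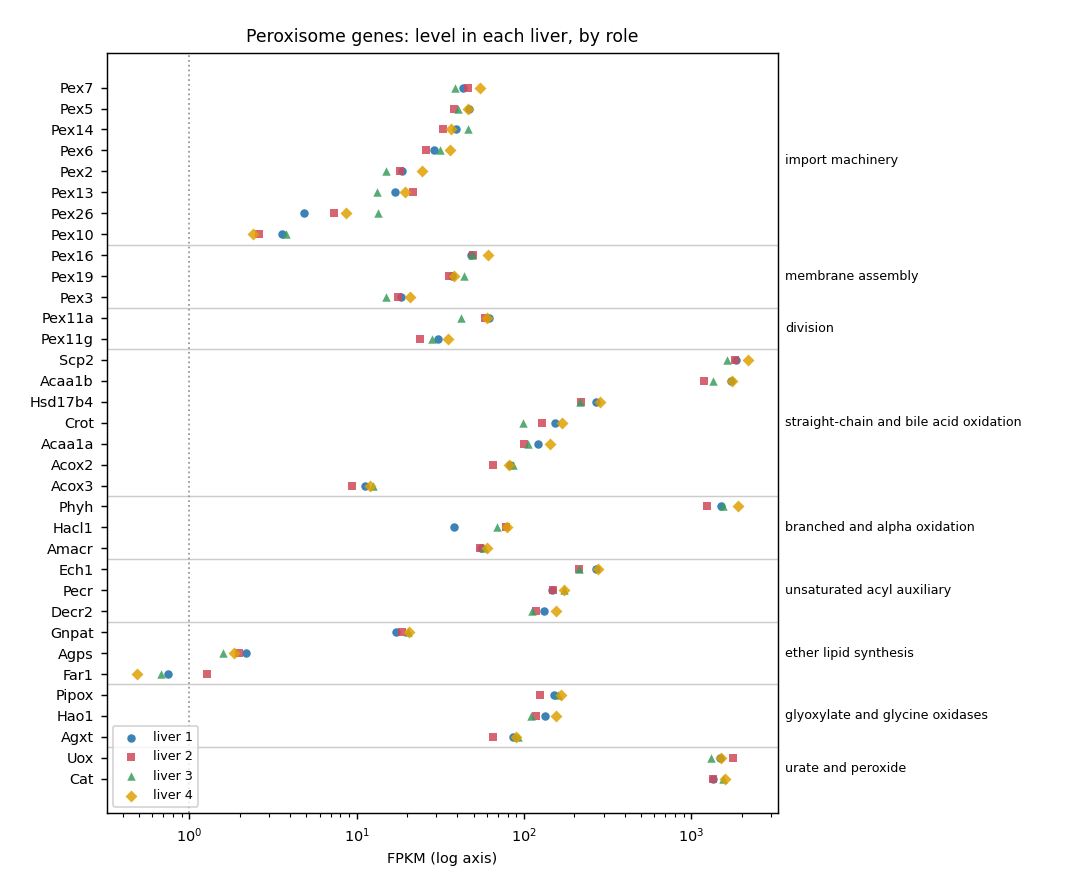
Level of each of the 34 peroxisome genes in each liver, in FPKM on a log axis, with genes grouped by role and ordered by mean within a role; each symbol is 1 animal and the dotted line is 1 FPKM. Scp2, Phyh, Uox, Acaa1b and Cat stand above all other genes in each of the 4 livers, and Far1 is the only gene with a mean under 1 FPKM.

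Peroxins that import matrix proteins had means from 3.09 to 45.7 FPKM. The means of the import receptors were the highest, but Pex14 overlapped both and exceeded both in liver 3. Pex7 (chromosome 10, 19860090 to 19907674), whose product recognises the N-terminal signal carried by thiolase and by the PHYH and AGPS proteins, was at 43.3, 46.5, 38.6 and 54.4 FPKM in livers 1 to 4, a mean of 45.7 ± 6.66 FPKM (SD, n = 4). Pex5 (chromosome 6, 124396816 to 124415067), the receptor for the C-terminal signal of most matrix enzymes, was at 46.8, 38.4, 40.6 and 46.5 FPKM. The ranges of these receptors overlapped, and the ratio of Pex5 to Pex7 was 0.953 ± 0.131 (SD, n = 4). In livers 1 and 3 Pex5 was the higher, and in livers 2 and 4 Pex7.

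The docking peroxins differed from each other. Pex14 was at 39.3, 32.9, 46.04 and 36.8 FPKM, and Pex13 at 16.96, 21.9, 13.2 and 19.4 FPKM in livers 1 to 4. Pex14 exceeded Pex13 in all 4 livers without overlap. Their liver orders were opposite at both ends: liver 3 was the highest for Pex14 and the lowest for Pex13, and liver 2 was the lowest for Pex14 and the highest for Pex13, so that the ratio ran from 1.504 in liver 2 to 3.50 in liver 3. The span listed for Pex13 is also that of Pus10, a pseudouridine synthase gene at 4.08 to 6.21 FPKM.

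Members of the ubiquitin ligase and of the ATPase complex that recycle PEX5 spanned a wide range of levels. Pex2 was at 18.6, 18.1, 14.96 and 24.5 FPKM, and Pex10 at 3.56, 2.61, 3.78 and 2.39 FPKM, both encoding RING subunits of the ligase. Pex2 was above Pex10 in each liver, and liver 4, where Pex2 was highest, had the lowest Pex10. Pex6, an ATPase subunit, was at 29.1, 26.1, 31.5 and 36.1 FPKM, lowest in liver 2 and highest in liver 4.

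Pex26 (XLOC_017501, chromosome 6, 121183667 to 121198837), which anchors the ATPase complex in the membrane, was the most variable expressed gene of the set. It was at 4.82, 7.32, 13.4 and 8.61 FPKM in livers 1 to 4, which is a 2.78-fold range with the lowest value in liver 1 and the highest in liver 3. The range was 1.79-fold without liver 3 and 1.83-fold without liver 1. The SD was 42.3% of the mean, while counting error, approximated from the depth and the longest coding transcript, was 3.94%. The ratio of Pex6 to Pex26 accordingly ran from 6.02 in liver 1 to 2.35 in liver 3.

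Peroxins that insert membrane proteins were led by Pex16. Pex19, the cytosolic chaperone of these proteins, was at 37.3, 35.6, 43.6 and 38.2 FPKM, and Pex3, its docking partner on the membrane, at 18.4, 17.7, 15.1 and 20.9 FPKM. Pex16 was at 48.1, 49.6, 49.2 and 61.1 FPKM, so that livers 1 to 3 lay close together and liver 4 stood above them. The summed level of the 3 genes had a mean of 109 ± 7.94 FPKM and a 1.17-fold range (SD, n = 4), with Pex19 highest and Pex3 lowest in liver 3. The span of Pex3 is shared with Adat2, which was at 1.07 to 2.10 FPKM.

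Of the genes for division and elongation of the organelle, Pex11a was the higher. Pex11a (chromosome 7, 79737264 to 79743025), the PPAR alpha-inducible isoform in rodents, was at 61.8, 58.2, 41.9 and 60.4 FPKM, with liver 3 below the other livers. Pex11g was at 30.8, 23.8, 28.02 and 34.97 FPKM. These ranges did not overlap, and the ratio of Pex11a to Pex11g ran from 1.49 in liver 3 to 2.45 in liver 2.

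Enzymes of the beta-oxidation spiral held 39.8 ± 2.21% of the summed level of the set (SD, n = 4), most of it in Scp2 and Acaa1b. Scp2 (XLOC_015222, chromosome 4, 108043830 to 108118547), which encodes both a thiolase for branched chains and sterol carrier protein, was at 1854, 1836, 1636 and 2172 FPKM in livers 1 to 4. Acaa1b (XLOC_022943, chromosome 9, 119148043 to 119157093) was at 1731, 1187, 1339.7 and 1759 FPKM. Livers 1 and 4 were high and livers 2 and 3 low for Acaa1b, with no value between 1339.7 and 1731 FPKM.

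Acaa1a (XLOC_022301, chromosome 9, 119341294 to 119350295) was at 122, 100.02, 105 and 143 FPKM, far below its paralog in each liver. Acaa1b exceeded Acaa1a by 14.2-fold, 11.9-fold, 12.7-fold and 12.3-fold in livers 1 to 4, a mean of 12.8 ± 1.02 (SD, n = 4). The main transcripts of the pair were 92.9% identical over 1637 aligned bases, with an identical run of 327 bases. Of the 50-base windows of the Acaa1a transcript 34.03% also occurred in that of Acaa1b, so a part of the reads fits both and its assignment by the authors' program limits the precision of this ratio.

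The other genes of the spiral lay far below Scp2 and Acaa1b. Hsd17b4, the multifunctional enzyme that hydrates and dehydrogenates branched and straight chains, was at 269, 219, 216 and 284 FPKM. Acox2, the oxidase for bile acid intermediates, was at 82.7, 65.6, 86.3 and 81.3 FPKM, and Acox3, an oxidase for branched chains, at 11.2, 9.35, 12.6 and 11.9 FPKM. Hsd17b4 shared the high livers 1 and 4 with Acaa1b, whereas the oxidases were lowest in liver 2 and highest in liver 3. The ratio of Acox2 to Acox3 was the steadiest of the 12 gene pairs computed, at 7.02 ± 0.263 (SD, n = 4, 1.09-fold range).

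Crot, which transfers the shortened chains to carnitine for export to mitochondria, was at 153, 128, 98.2 and 168 FPKM, a 1.71-fold range with liver 3 lowest. This was the widest range among the 7 genes of the beta-oxidation group, where the other 6 ranged from 1.31-fold to 1.48-fold.

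Genes for branched chains were led by Phyh (XLOC_011030, chromosome 2, 4918996 to 4938743), the hydroxylase that opens the alpha-oxidation of phytanic acid. Phyh was at 1513, 1247, 1558 and 1908 FPKM, a 1.53-fold range with liver 2 lowest and liver 4 highest. Hacl1, the lyase of a later step, was at 38.2, 77.9, 69.03 and 79.4 FPKM, with liver 1 well below the other 3 livers. The ratio of Phyh to Hacl1 was 39.6 in liver 1 and between 16.02 and 24.03 in the other livers. Without liver 1 the range of Hacl1 was 1.15-fold in place of 2.08-fold. Amacr, the racemase that prepares branched chains for oxidation, was the steadiest gene of the set, at 55.6, 54.9, 57.6 and 60.03 FPKM, a 1.09-fold range.

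Among the auxiliary enzymes for unsaturated chains, Ech1 was the highest in each liver. Ech1, an isomerase of dienoyl-CoA, was at 270.1, 214, 213 and 275 FPKM, Decr2, a reductase of dienoyl-CoA, at 132, 119, 111 and 156 FPKM, and Pecr, a reductase of enoyl-CoA, at 148, 149, 173 and 174 FPKM. Ech1 showed the split into livers 1 and 4 against livers 2 and 3, while Pecr was split into livers 3 and 4 against livers 1 and 2. The 3 genes together held 5.36 ± 0.12% of the set's summed level (SD, n = 4).

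Ether lipid synthesis had the lowest summed level of the 9 roles, and Agps and Far1 were the lowest transcripts of the set. Gnpat, the acyltransferase of the first step, was at 17.2, 18.6, 20.4 and 20.6 FPKM. Agps, which exchanges the acyl chain for an alcohol, was at 2.18, 1.97, 1.58 and 1.86 FPKM, and Far1 (XLOC_019096, chromosome 7, 113513834 to 113570888), which supplies that alcohol, at 0.740, 1.28, 0.672 and 0.487 FPKM. The 3 genes did not overlap, with Gnpat above Agps and Agps above Far1 in each liver. Far1 had a 2.63-fold range with liver 2 highest (1.52-fold without liver 2), resting on about 44 fragments in its lowest liver, and the SD of 42.96% of the mean compared with a counting error of about 11.6%. Its relative Far2 had a mean of 0.159 FPKM.

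Genes of glyoxylate and amino acid oxidation lay between 65.5 and 167 FPKM. Hao1, the glycolate oxidase that makes glyoxylate, was at 133, 117, 111 and 155 FPKM, and Agxt, the aminotransferase that removes glyoxylate, at 85.5, 65.5, 92.05 and 89.01 FPKM. Hao1 was above Agxt in all 4 livers, by 1.202-fold in liver 3 and by 1.79-fold in liver 2. Pipox, an oxidase of pipecolate and sarcosine, was at 151, 125, 159 and 167 FPKM. For Agxt and Pipox liver 2 was the lowest, and for Hao1 liver 3.

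Uox, which encodes urate oxidase, and Cat, which encodes catalase, held 30.1 ± 2.82% of the set's summed level (SD, n = 4). Uox (chromosome 3, 146581373 to 146631483) was at 1475, 1775, 1315 and 1502 FPKM, and was 1 of only 2 expressed genes of the set that were highest in liver 2, the other being Pex13. Cat (chromosome 2, 103453904 to 103485153) was at 1347, 1344, 1545 and 1598 FPKM. Uox exceeded Cat by 1.32-fold in liver 2 and was below it, at 0.851 and 0.940 of its level, in livers 3 and 4. The span of Uox is shared with Dnase2b, at 16.06 to 21.8 FPKM.

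The spread between animals was set against that of all expressed genes. The median SD of log2(FPKM + 1) over the 33 expressed genes was 0.20, against 0.16 over all 10541, and the median ratio of highest to lowest liver was 1.39 against 1.34. Over the 1407 genes of at least 50 FPKM, nearer in level to the set, these medians were 0.16 and 1.29. A ratio of at least 1.5 was found for 7 of the 33 genes (21.2%), where the background was 28.4% of expressed genes. These 7 were Pex26, Hacl1, Crot, Pex13, Pex2, Pex10 and Phyh, so 4 of them were peroxins of the import machinery. A ratio of at least 2 was found for Pex26 and Hacl1, 6.06% of the 33 against a background of 6.54%. Both shares were near or below the background. The count of 7 fell to 3 without liver 3 and to 4 without liver 4. In all 33 expressed genes the SD exceeded the approximate counting error, by 2.08-fold for Amacr and by 39.6-fold for Acaa1b. These factors depend on the rough depth estimate. The livers are separate animals, so the comparison with counting error describes the precision of the values and tests nothing. On a ratio of gap to range that marks 1 liver standing apart (Dixon), 2 of the 33 genes were past the critical value, Pex16 and Pex11a, against a background of 5.46%.

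**Figure D2:**
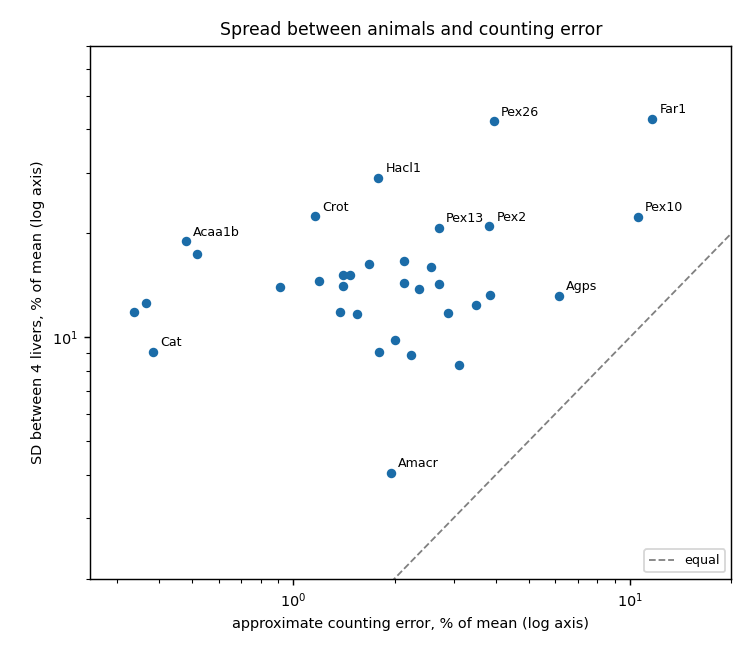
SD between the 4 livers as a percentage of the mean, on the vertical log axis, against the approximate counting error as a percentage of the mean, on the horizontal log axis; each point is 1 of the 34 genes and the dashed line marks equality. All points lie above the line, with Pex26 and Far1 highest at 42.3% and 42.96% and Amacr lowest at 4.05%.

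As deposited, genes of the set were most often highest in liver 4 and most often lowest in livers 2 and 3. Of the 33 expressed genes 21 (63.6%) were highest in liver 4, where 33.3% of all expressed genes were; 7 were highest in liver 3 (background 26.8%), 3 in liver 1 (17.9%) and 2 in liver 2 (22%). The lowest value fell in liver 2 for 14 genes (background 29.9%), in liver 3 for 13 (background 31.4%), in liver 1 for 5 (background 20.7%) and in liver 4 for 1 gene, Pex10 (background 18.1%). Relative to its own mean over livers, the median gene of the set deviated by 0.01, -0.11, -0.07 and 0.15 on the log2(FPKM + 1) scale in livers 1 to 4. The same medians over all expressed genes were -0.01, -0.02, -0.01 and 0.04. In liver 4, 28 of the 33 genes lay above their mean (84.8%), as did 60.8% of all expressed genes. No test of these differences was made, since the livers are 4 animals of 1 group.

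The count of genes highest in liver 4 moved with the scale of the library, in the set and among all expressed genes. Scaling shifts every gene of a liver alike. The set's median in liver 4 stayed above that of all expressed genes under each scaling. The summed FPKM of liver 4 was 570681, against 516816 to 524394 in the other livers. With all livers scaled to equal totals, 12 of the 33 genes were highest in liver 4 (36.4%, against 15.6% of all expressed genes). As many, 12, were then highest in liver 3 (against 34.2%). The median deviation in liver 4 was then 0.06, against -0.04 over all. Under median-ratio scaling 16 genes were highest in liver 4 (48.5% against 27.1%) and the median was 0.12 against 0.02. The summed hepatocyte markers were also highest in liver 4, where 5 of the 8 were highest but Tat was lowest, while Cps1 and Hnf4a were highest in liver 3. The acute phase and stellate cell sums were highest in liver 2, with 6 of 6 and 4 of 5 genes. The macrophage sum, led by C1qa, was highest there too, with 3 of its 6 genes, the other 3 being highest in liver 4. The part of these markers in the result was not tested.

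**Figure D3:**
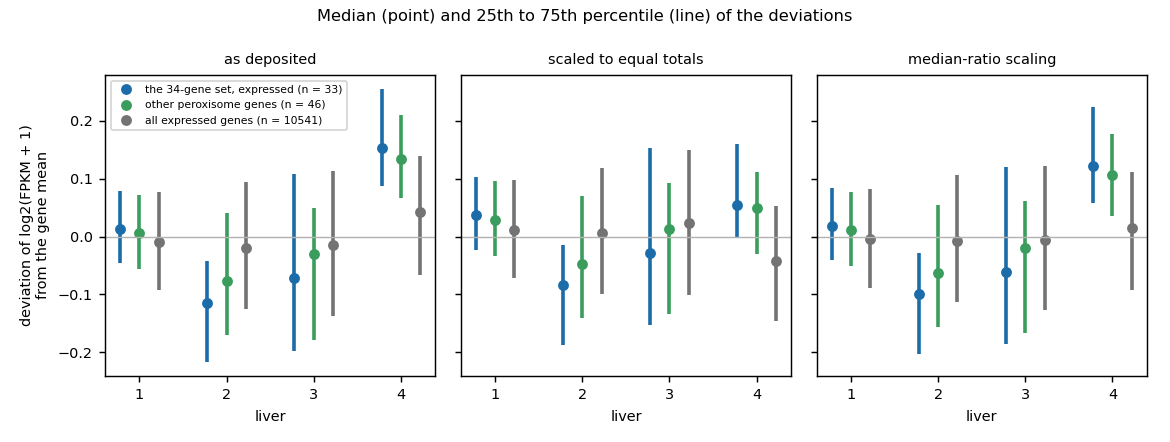
Deviation of log2(FPKM + 1) from the gene mean in each liver, under 3 scalings; points are medians and lines run from the 25th to the 75th percentile over the 33 expressed genes of the set, 46 other peroxisome genes and 10541 expressed genes. In liver 4 the median of the set is 0.15, 0.06 and 0.12 in the left, middle and right panels, above that of all expressed genes in each.

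The deviations differed between and within roles, and no difference between roles was tested. In liver 4 the group medians ran from 0.04 over the 2 expressed ether lipid genes to 0.31 over the 3 branched-chain genes. In liver 2 the medians were -0.25 over the glyoxylate and amino acid genes and -0.22 over the beta-oxidation genes, while Uox deviated by 0.23 and Cat by -0.11. In liver 3 the median over the unsaturated-chain enzymes was -0.18, and Pex11a deviated by -0.38 but Pex11g by -0.05. Genes of a single role also went opposite ways in liver 3, where Agxt deviated by 0.16 and Hao1 by -0.21. The quartiles over the 33 genes in liver 3, -0.20 and 0.11, were the widest apart of the 4 livers. The same held over all expressed genes, with liver 3 quartiles of -0.14 and 0.11, so it is not particular to the set.

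**Figure D4:**
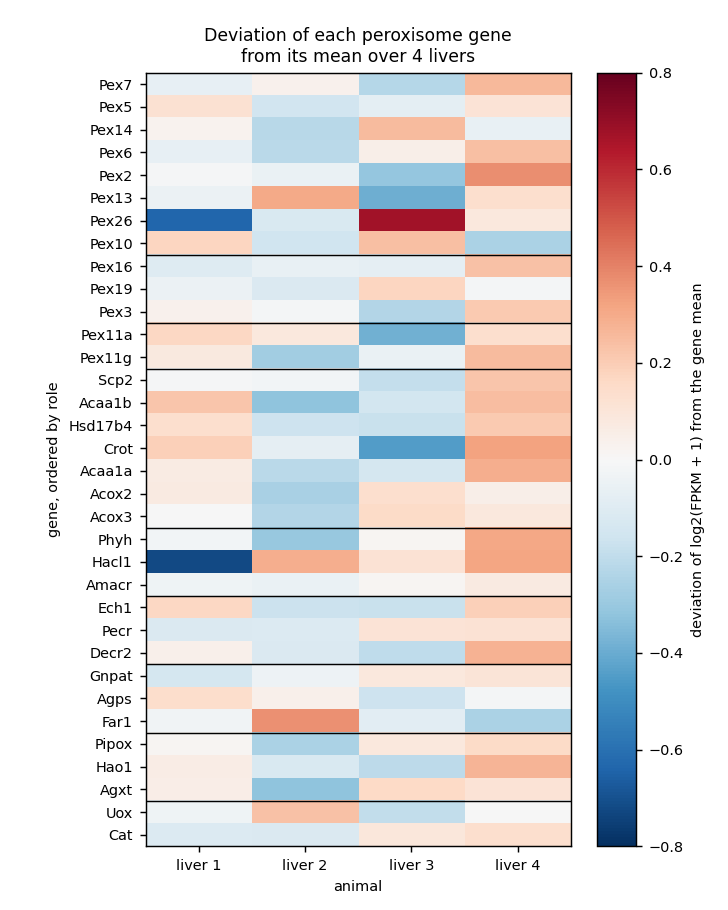
Deviation of log2(FPKM + 1) of each gene from its mean over the 4 livers, as colour from blue (below) to red (above), with genes in rows grouped by role and livers in columns. The column of liver 4 is mostly red, the strongest colours belong to Pex26 and Hacl1, and Pex10 and Far1 are blue in liver 4.

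Other peroxisome genes were examined from a list of 52, of which 51 were in the table and 46 expressed. Among their highest were Slc27a2 (889 ± 140.3 FPKM), a very long chain acyl-CoA synthetase, Acsl1 (459 ± 67.9 FPKM), Ephx2 (408 ± 69.8 FPKM), Nudt7 (398 ± 92.4 FPKM), which splits coenzyme A, and Prdx5 (282 ± 25.6 FPKM, each SD, n = 4). A ratio of at least 1.5 between livers was found for 7 of the 46 (background 28.4%), namely Acot3, Abcd2, Acot4, Nudt7, Ephx2, Mpv17l and Eci2. Acot3, an acyl-CoA thioesterase gene, was at 6.42, 15.3, 4.46 and 19.5 FPKM, high in livers 2 and 4 and low in livers 1 and 3, and its neighbour Acot4 at 14.7, 22.4, 13.5 and 21.9 FPKM had the same high and low livers. Of the 46 genes 25 were highest in liver 4 (background 33.3%), 20 lowest in liver 2 (background 29.9%) and 16 lowest in liver 3 (background 31.4%), and their median deviation was 0.13 in liver 4 and -0.08 in liver 2. With equal totals 14 of the 46 were highest in liver 4 (30.4%, against 15.6% of all expressed genes) and the median there was 0.05. Dao and Eci3 were listed at 0 in all livers.

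PPAR alpha and its targets outside peroxisomes were listed for comparison. Ppara was at 61.9, 55.7, 58.1 and 66.8 FPKM and its partner Rxra at 91.3, 92.1, 112 and 109 FPKM. Ppara was highest in liver 4 and lowest in liver 2. Of the 17 listed genes 11 were highest in liver 4 (64.7%, background 33.3%), 6 lowest in liver 2 (35.3%, background 29.9%) and 7 lowest in liver 3 (41.2%, background 31.4%). The fatty acid hydroxylase Cyp4a10 was at 238, 199, 229.9 and 249 FPKM, but its neighbour Cyp4a14, at 62.8, 54.5, 39.8 and 47.4 FPKM, was highest in liver 1. Pdk4, a kinase that inhibits pyruvate dehydrogenase, was lowest in liver 4, at 1.58 FPKM, where livers 1 to 3 gave 3.36 to 5.66 FPKM. The 17 genes had a median deviation of 0.14 in liver 4 and -0.06 in liver 2, with 7 of 17 at a ratio of at least 1.5 (background 28.4%). With equal totals 6 of the 17 were highest in liver 4 (35.3%, against 15.6%) and the median there was 0.04.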

How the data were processed

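Poly(A)-enriched libraries of 4 livers were sequenced. The authors' deposited table holds 1 value per gene and liver, with unit unnamed in the header; FPKM is inferred from the values and from Cufflinks 2.2.1, which the submitters' processing notes list beside STAR 2.7.6a, Trim Galore 0.6.3, cutadapt, FastQC 0.10.1 and the build mm10. Columns were matched through sample descriptions, with 0 unmatched. Spans are those of the table with 1 added to each start; all 34 overlapped the RefSeq span in GRCm38.p6, and 21 starts then equalled the RefSeq start. A span can cover several genes.

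Analysis used Python 3.11.15, pandas 2.3.3, NumPy 2.4.6 and Biopython 1.88. Values were taken as log2(FPKM + 1), which understates differences of low genes. Alternatives were a pseudocount of 0.1 or 5, a minimum mean of 0.1 or 5 FPKM, the mean in place of the median, scaling to equal totals, median-ratio scaling and leaving out each liver. Depth was estimated from genes with 1 transcript longer than 800 bases in GENCODE (release M21), as the median product of FPKM and length less 200 bases between 25 and 75. That window bounds the estimate in advance, and the medians, 49.8 to 53.1, lay near its middle. Depth, fragment counts and counting errors are therefore rough, and a depth well outside these bounds would not have been seen. Subtracting 100 or 300 bases, with the same window, gave 18.2 to 21.1 in units of 1e+06 fragments. Counting errors use the longest coding transcript and cover counting only. The ratio used to mark a liver far from the rest was tried on simulated data with planted changes far larger than those marked here. How well it finds changes of the size marked here is therefore not known. The members and gene lists were chosen with earlier results of these data known. Named genes are the 34 genes, the 6 highest of the other peroxisome list and those with a ratio of at least 1.5, and the comparison lists, of which some genes are not reported here; Far2, Dao, Eci3, Acbd4 and Ddo and the genes sharing a span were named after their values were seen. The CCAAT, GC and TATA box searches were added to the planned search for the direct repeat. The labels number 4 livers and do not speak of litters or cages. The planned search for protein targeting signals was not run, as proteins were not used here.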

Additional observations from a re-analysis of the deposited data

Results flagged for a closer look

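The genes below have 1 liver far from the rest: on the log2(FPKM + 1) scale, its distance to the next liver took up more of the whole range than Dixon's 95% limit allows. Chance marks about 1 in 20 genes, and 5.46% of all expressed genes were marked. Among the 33 expressed genes of the set 2 were marked, and 4 among 97 listed genes examined. Pex16 stood out in liver 4 at 61.1 FPKM, against 48.1 to 49.6 FPKM elsewhere. Pex11a was low in liver 3 at 41.9 FPKM, against 58.2 to 61.8 FPKM elsewhere. Without the log, Pex11a had a ratio of 0.823, just under the limit. Acbd4, which encodes a tether to the endoplasmic reticulum, was low in liver 4 at 15.2 FPKM, against 16.7 to 16.9 FPKM elsewhere. Ddo, the oxidase of D-aspartate, was high in liver 2 at 9.90 FPKM, against 8.65 to 8.71 FPKM elsewhere.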

How the results depend on the processing

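The number of genes highest in liver 4, a result added after the values were seen, was 21 as deposited, 12 with equal totals and 16 under median-ratio scaling. The share of all expressed genes highest there moved too, from 33.3% to 15.6% and 27.1%. When another liver was left out the number was 23 to 25. Genes lowest in liver 3 numbered 12 to 17 over the alternatives. The number with a highest-to-lowest ratio of at least 1.5 was 3 to 6 when a liver was left out, in part because 3 livers give a narrower range than 4, and 5 with equal totals. The median SD was 0.17 to 0.22 when a liver was left out, 0.18 with a pseudocount of 5 and 0.17 with equal totals. The median deviation in liver 4 stayed positive, from 0.06 with equal totals to 0.19 with a minimum mean of 5 FPKM, and that in liver 2 stayed negative, from -0.14 to -0.07. In liver 3 it was 0.01 without liver 4, and in liver 1 its sign differed between alternatives (-0.02 to 0.08). The ratio of single genes was narrower for 24 of 34 with equal totals and for 29 of 34 under median-ratio scaling. No paired analysis was possible because there is only 1 group. Values of Far1 and Pex10 rest on few fragments, about 44 and 67 in their lowest livers by the rough depth estimate.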
